A study of Mus musculus with 2 samples.

Results

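The genes described here are 10 RNA-binding proteins that regulate splicing in neurons, together with the splicing of their own transcripts. They were taken by symbol from gene models on mm9, the mouse genome build of the deposited alignments, and are Ptbp1, Ptbp2, Nova1, Nova2, Rbfox1, Rbfox2, Rbfox3, Srrm4, Elavl3 and Elavl4. All 10 were found among the 37310 annotated genes, and all 10 had over 100 reads in each library. RNA was sequenced from whole brains of E17.5 embryos, late in gestation, that were F1 hybrids of reciprocal crosses. BxC embryos had a C57BL/6J mother and a CastEi/J father, and CxB embryos had a CastEi/J mother and a C57BL/6J father. Every autosome of both F1s therefore carries 1 chromosome set of each strain, and only the parent that gave it differs. Neither the labels nor the study's methods name a treatment, a deletion or a transgene. There was 1 library of each cross, each from 1 brain, so no spread between replicates could be had and no test between the crosses was made. Intervals given below are at 95% and cover counting error only.

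Neurons splice many exons that other cells skip, and a small set of RNA-binding proteins sets this pattern. PTBP1 binds pyrimidine-rich sequence and represses neuronal exons in progenitors and non-neural cells, and its paralog PTBP2 takes its place as neurons form. NOVA proteins bind clusters of YCAY, where Y is C or T, RBFOX proteins bind TGCATG, SRRM4 promotes the inclusion of very short neuronal exons, and neuronal ELAVL proteins bind U-rich and AU-rich sequence. Several of these proteins also regulate exons in their own or each other's transcripts, through a change of the protein or through a transcript with a premature stop. On mm9, Ptbp1 at chr10:79317172-79327516, Nova2 at chr7:19510698-19551031 and Rbfox1 at chr16:6809315-7412572 lie on the plus strand. On the minus strand lie Ptbp2 at chr3:119421660-119486306, Nova1 at chr12:47795504-47919762, Rbfox2 at chr15:76909420-77137483, Rbfox3 at chr11:118351074-118772911, Srrm4 at chr5:116889281-117041826, Elavl3 at chr9:21819449-21856467 and Elavl4 at chr4:109876327-110024514.

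The libraries held 128944754 reads (BxC) and 109719746 reads (CxB), of which 6.47% and 6.20% crossed a splice junction. These totals sum a count per alignment line that was taken, from its values, as the number of identical reads. Both lie above the average number of reads that the study's methods give for its libraries. The cause of that difference was not tested. The reads lay on 36575945 and 31155725 distinct alignment lines, so many reads were identical. Counts of these lines are called distinct positions below, although several lines can share 1 position. Where reads are many, lines need not rise in step with them. Shares over distinct positions can therefore lie nearer to even than shares of reads. Whether identical reads came from separate molecules was not tested. Where they did not, the intervals are narrower than the true error. Xist, which is transcribed from the inactive X chromosome, had 142957 reads in BxC and 38 in CxB, and Ddx3y, on chromosome Y, had 0 and 1296. By these genes the BxC library came from a female and the CxB library from a male. The study's methods name the CxB brain as male and list 1 female among the BxC brains, and do not say which of these was deposited. Cross, embryo and the sex that these genes mark cannot be told apart. Markers of neurons and of neural progenitors were present in both libraries, with a median log2 ratio of CxB over BxC of 0.02 over 6 neuronal and 0.01 over 6 progenitor genes. The summed level of the neuronal markers in RPKM, which is exon reads scaled by the exon length in kilobases and by library size, was 1499 (BxC) and 1382 (CxB). Tubb3, a neuronal tubulin, made up most of it (974 and 840 RPKM), and without it the other 5 summed to 525 and 542, higher in CxB. For the progenitor markers it was 162 and 164. The 2 adult globin genes on the blood list were lower in CxB, by a median log2 of -0.29. The medians were 0.04 for the oligodendrocyte lineage, -0.04 for endothelium and microglia and 0.09 for choroid plexus. Of the genes from outside the brain only Myh6 had at least 100 reads in each library (0.12), and no marker with that many reads was past the limit of 0.5 used for the genes. Of those with fewer, Alb, which encodes the liver protein albumin, had 0 reads in BxC and 45 in CxB, and the insulin gene Ins2 had 6 and 26. The part of any of these in the values below was not tested. In a whole brain, fewer cells of a type and less RNA per cell cannot be told apart.

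Elavl3 had the highest level of the 10 genes and Ptbp1 the lowest. Levels are compared per length, as RPKM. Elavl3, a neuronal ELAVL protein, was at 208 RPKM in BxC (206 to 209) and 203 in CxB (202 to 204). Rbfox2 followed at 79.1 and 80.4 RPKM, then Nova2 at 45.1 and 47.7 and Rbfox1 at 40.5 and 39.8. Ptbp2 was at 27.0 and 29.8 RPKM, Srrm4 at 23.8 and 22.1, Elavl4 at 23.5 and 23.2, and Rbfox3, the antigen known as NeuN, at 19.99 and 19.5. Srrm4 and Elavl4 changed places between the libraries, and their intervals overlapped in BxC (23.5 to 24.1 and 23.1 to 23.8). No other neighbours in the order had overlapping intervals. Over distinct positions in place of reads, the values were lower for the most abundant genes, at 98.4 and 104.3 for Elavl3, 45.2 and 47.3 for Rbfox2 and 27.9 and 29.2 for Nova2, and Elavl4 (15.9 and 16.3) lay below Rbfox3 (16.98 and 17.4). Nova1 was at 10.4 and 11.3 RPKM and Ptbp1 at 8.57 and 8.18. As unscaled density, Ptbp1 had 1105 exon reads per kilobase in BxC and 897 in CxB, against 26762 and 22287 for Elavl3. For Nova2, 2652 of 9014 exon bases are also covered by another annotated gene, and for Ptbp1 773 of 4748, and reads of the overlapping genes cannot be separated there because both strands were counted.

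Within each family, the order of the paralogs was the same in both libraries. The level of Ptbp2 was 3.15 times that of Ptbp1 in BxC and 3.65 times in CxB. Nova2 was at 4.32 and 4.22 times the level of Nova1, and at 2.24 and 2.27 times over distinct positions. Rbfox2 was at 1.95 and 2.02 times the level of Rbfox1, which in turn was at 2.03 and 2.04 times that of Rbfox3. Elavl3 was at 8.84 and 8.74 times the level of Elavl4. Related regulators outside the set were also measured. Ptbp3, the third PTB gene, which the annotation lists as Rod1, was at 3.54 and 3.86 RPKM. Elavl1, the broadly expressed member of the ELAVL family, was at 7.57 and 9.20, and Elavl2 at 14.4 and 15.5. Srrm3, a paralog of Srrm4, was at 12.7 and 12.4 RPKM.

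**Figure D1:**
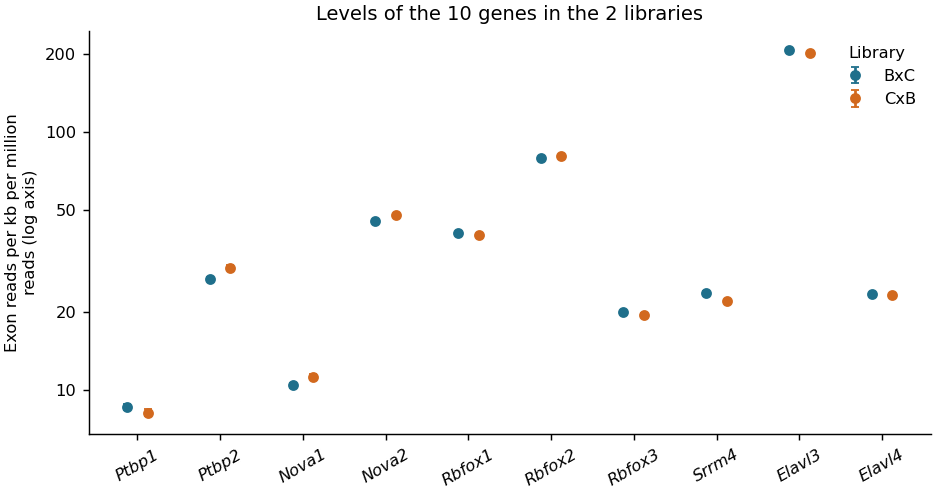
Level of each of the 10 genes in BxC (blue) and CxB (orange), in RPKM on a log axis. Points are single libraries and bars, often smaller than the point, are exact Poisson intervals at 95% of the read count; Elavl3 lies above 200 RPKM and Ptbp1 below 10 in both libraries.

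Between the crosses, the levels of the 10 genes differed little. A ratio was called past the limit where its log2 was at least 0.5 above or below 0, over genes with at least 100 reads in each library. None of the 10 genes was past it (0 of 10), beside 2.06% of the 15427 genes measured (318 genes), so a count of 0 among 10 is close to that background. Ptbp2 had the highest log2 ratio of CxB over BxC, 0.14 (0.11 to 0.18), followed by Nova1 at 0.11 (0.07 to 0.16) and Nova2 at 0.08 (0.06 to 0.10). Rbfox2 was at 0.02 (0.01 to 0.04). The log2 ratios of the others were below 0. Srrm4 had the lowest, -0.11 (-0.13 to -0.08), Ptbp1 was at -0.07 (-0.13 to -0.01), Rbfox3 and Elavl3 were both at -0.03, Rbfox1 was also at -0.03 and Elavl4 at -0.01. The median over the 10 genes was -0.02, beside -0.0011 over all genes measured. With distinct positions in place of reads, 8 of the 10 ratios were above 0 in place of 4, as Rbfox1, Rbfox3, Elavl3 and Elavl4 changed sign. A median over all genes is not given for distinct positions, so these signs are not read as a trait of the 10 genes.

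**Figure D2:**
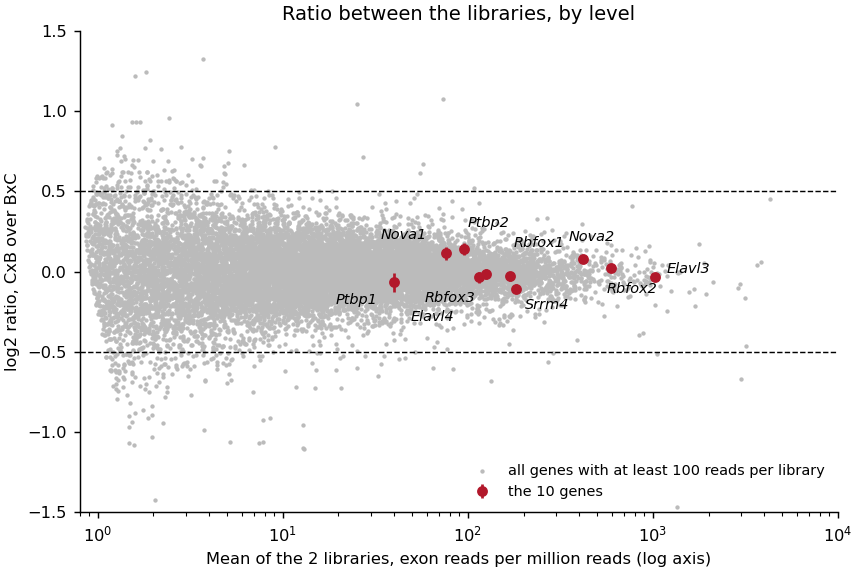
Log2 ratio of CxB over BxC against the mean level of the 2 libraries, in exon reads scaled by library size (RPM) on a log axis, for genes with at least 100 reads in each library (grey) and the 10 splicing regulators (red, with 95% intervals of the ratio from the exact binomial share). Dashed lines mark the limit of 0.5; the 10 genes lie between -0.11 and 0.14, and 6 genes outside the axis are not drawn.

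Of 40 other splicing regulators listed beside the 10 genes, all 40 were matched and 38 had at least 100 reads in each library. None of the 38 was past the limit, beside 2.06% of the 15427 genes measured, so a count of 0 among 38 is close to that background. Their median log2 ratio was 0.07, beside -0.0011 over all genes measured. Of the 38, 25 lay above 0 and 13 below, beside 7653 and 7774 of all genes measured. The highest levels were those of Hnrnpa2b1, a general hnRNP protein (221 RPKM in BxC and 213 in CxB), Celf3 (122 and 118) and Celf4 (105 and 101), which are brain-enriched CELF proteins. The lowest were those of the epithelial regulators Esrp1, with 20 and 46 reads, and Esrp2, with 55 and 37 reads, and of Mbnl3, at 0.100 and 0.104 RPKM. The highest log2 ratios were 0.32 for Rbm20 (0.04 to 0.59), 0.31 for Khdrbs3 (0.27 to 0.35) and 0.28 for Elavl1 (0.23 to 0.33). The lowest were -0.28 for Hnrnpa1 (-0.32 to -0.25), -0.06 for Srrm2 and -0.06 for Celf4.

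Exon 10 of Ptbp2 is the exon by which PTBP1 is known to restrain its paralog. It has 34 bases, so that skipping it shifts the reading frame and leads to a premature stop. It is exon 10 of 14 and coding, on the minus strand at chr3:119427530-119427563 of mm9. It is printed in the direction of transcription, exon in capitals and intron in lower case (chr3:119427490-119427663), above the matching 34-base exon of Ptbp1, with its flanks (chr10:79324659-79324832, plus strand). The exons were identical at 26 of 34 bases, or 76.5%.
Ptbp2 exon 10: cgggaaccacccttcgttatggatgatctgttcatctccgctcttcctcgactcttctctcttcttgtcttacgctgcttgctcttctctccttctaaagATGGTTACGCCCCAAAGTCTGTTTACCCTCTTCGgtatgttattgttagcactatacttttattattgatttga
Ptbp1 34-base exon: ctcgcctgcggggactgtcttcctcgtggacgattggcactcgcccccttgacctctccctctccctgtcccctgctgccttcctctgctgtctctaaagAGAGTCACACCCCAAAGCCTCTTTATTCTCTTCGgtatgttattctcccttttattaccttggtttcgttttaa
The 100 bases before exon 10 of Ptbp2 hold 6 matches to TCTT and 1 to CTCTCT, pyrimidine motifs that PTB proteins are known to bind. Motifs were searched on the transcribed strand only, and matches of different motifs could overlap. Of the 54444 annotated internal exons measured, 62.5% had TCTT in that window and 0.235% had at least 6 matches, and 10.9% had CTCTCT. The same window of Ptbp1 holds 1 match to TCTT and 0 to CTCTCT. A match describes the letters and is not shown to be a binding site.

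Exon 10 of Ptbp2 was included in nearly all informative junction reads of both libraries, which count only the RNA present. In BxC, 210 reads joined exon 9 to exon 10, 103 joined exon 10 to exon 11, and 2 joined exon 9 directly to exon 11. In CxB these counts were 171, 72 and 0. Inclusion, the mean of both inclusion junctions over that mean plus the skipping reads, was 98.7% in BxC (Clopper-Pearson interval 95.5 to 99.8) and 100% in CxB (97.01 to 100). The count of 0 in CxB allows a skipped share of up to 2.47%. The difference, 1.26 points, lay within the intervals. The 2 skipping reads in BxC lay on 2 alignment lines. With at least 10 aligned bases on each side of a junction, 35 and 60 reads in BxC and 30 and 31 in CxB were left on the inclusion junctions. Across the exon 2 and 0 were left. A read per base inside the exon was a coarser measure: depth was 186 in exon 10 of BxC, beside 184 in exon 9 and 225 in exon 11, and 131 in CxB, beside 156 and 184. On that measure the exon stood at 90.8% of the mean of its neighbours in BxC and 77.4% in CxB, but depth also varied across the other internal exons of Ptbp2, from 79.7 in exon 7 to 384 in exon 2 of BxC.

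The 34-base exon of Ptbp1, which PTB proteins are known to repress in Ptbp1 itself, could not be measured in the same way. The junction into it had 129 reads in BxC and 84 in CxB, but the junction out of it and the junction across it had 0 reads in both libraries. Of 27 annotated introns of Ptbp1, 13 had no reads in either library. The junctions to which reads could be aligned are not named for these files, so a count of 0 at a Ptbp1 junction was not read as absence, and the exon's computed inclusion is not given. The exon stays among those counted below as measured and not alternative. The cause of the counts of 0 was not tested. A coding 78-base exon of Ptbp1 at chr10:79322862-79322939 was included at 29.8% in BxC (14.3 to 49.8) and 24.4% in CxB (9.02 to 46.9), from 3 and 3 reads on its upstream junction, 14 and 8 on its downstream junction and 20 and 17 across it. The 20 skipping reads of BxC lay on 3 alignment lines, and none had at least 10 aligned bases on each side of the junction. With that overhang 1 and 6 reads in BxC and 0 and 3 in CxB were left on its inclusion junctions, and 0 and 1 across it, which is under the minimum of 20 and too few for a value. The alternative use of this exon thus rests on reads with a short overhang. A 73-base coding exon stood at 96.2% and 92.3%, and with that overhang it too had fewer than 20 informative reads.

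**Figure D3:**
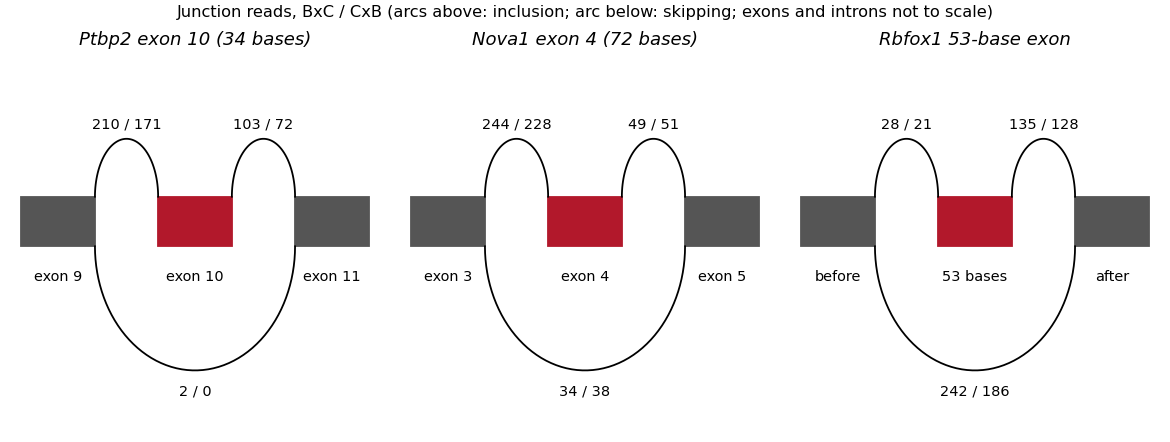
Reads on the junctions of Ptbp2 exon 10, Nova1 exon 4 and the 53-base exon of Rbfox1, written as BxC / CxB; boxes are exons (red, the exon described), arcs above are inclusion junctions and the arc below is the skipping junction, not to scale. Skipping has 2 and 0 reads for Ptbp2, 34 and 38 for Nova1, and 242 and 186 for Rbfox1.

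Over the 10 genes, 107 annotated internal exons were examined and 96 had at least 20 informative reads in each library. Of these, 11 were alternative, with inclusion between 5% and 95% in at least 1 library, or 11.5%, beside 7.81% of all 54444 annotated internal exons measured (4252 exons). Without the 34-base exon of Ptbp1 it was 11 of 95, or 11.6%. The 11 exons were 2 in Ptbp1, 1 in Nova1, 3 in Rbfox1, 3 in Rbfox2, 1 in Rbfox3 and 1 in Elavl4. Ptbp2, Nova2, Srrm4 and Elavl3 had none. Over distinct positions in place of reads, 65 exons reached the minimum of 20 and 18 of them were alternative (27.7%), beside 14.3% of 19236 exons of all genes. Ptbp2 then had 1, exon 10, at 94.9% in BxC, Elavl3 had 2, and of Ptbp1 no exon reached the minimum. Between the crosses, 1 of the 11 differed by at least 10 points (9.09%), beside 22.6% of the 4252 alternative exons.

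Exon 4 of Nova1, which NOVA proteins are known to regulate in their own transcript, has 72 bases, a whole number of codons, and lies at chr12:47814485-47814556 on the minus strand. It is printed with 40 bases of intron before it and 100 after (chr12:47814385-47814596).
Nova1 exon 4: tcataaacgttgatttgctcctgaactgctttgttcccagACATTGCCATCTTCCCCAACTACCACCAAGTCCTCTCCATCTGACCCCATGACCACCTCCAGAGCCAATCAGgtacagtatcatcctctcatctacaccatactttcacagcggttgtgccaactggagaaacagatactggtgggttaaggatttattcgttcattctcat
The 100 intron bases after the exon hold 6 matches to YCAY, and 0.918% of the measured internal exons had at least as many, with a median of 1. Matches inside the exon and before it were not counted. Reads into the exon numbered 244 in BxC and 228 in CxB, reads out of it 49 and 51, and reads across it 34 and 38. Inclusion was 81.2% in BxC (74.7 to 86.6) and 78.6% in CxB (71.8 to 84.4), and the intervals overlapped. The value depended on the side from which it was read, 87.8% and 85.7% from the upstream junction and 59.0% and 57.3% from the downstream one. Over distinct positions it was 60.5% and 58.2%. The junction that skips exon 4 is not in the annotation. Nova2 had no alternative internal exon among the 2 of its 3 that could be measured.

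The RBFOX genes carried 7 of the 11 alternative exons, and also many of the 96 measured exons (13 in Rbfox1, 15 in Rbfox2 and 14 in Rbfox3). In Rbfox1, a 53-base coding exon near the end of the gene changes the frame of the C-terminus, and it is printed with 40 bases of intron before it and 120 after (chr16:7392041-7392253, plus strand).
Rbfox1 53-base exon: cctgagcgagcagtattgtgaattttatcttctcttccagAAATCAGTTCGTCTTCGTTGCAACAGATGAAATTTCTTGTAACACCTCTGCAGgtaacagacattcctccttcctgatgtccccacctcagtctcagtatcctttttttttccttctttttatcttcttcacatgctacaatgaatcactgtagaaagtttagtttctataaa
It was included at 25.2% in BxC (20.6 to 30.3) and 28.6% in CxB (23.2 to 34.5), with 28 and 21 reads into it, 135 and 128 out of it, and 242 and 186 across it. Read from the upstream junction alone, inclusion was 10.4% and 10.1%, and from the downstream junction alone 35.8% and 40.8%. Over distinct positions it was 35.4% and 34.1%. The 200 bases after the exon hold no TGCATG, which 8.19% of such windows hold. An 81-base exon of Rbfox1 stood at 70.5% (61.6 to 78.4) and 66.1% (57.1 to 74.4), with 36 and 42 skipping reads. A 54-base exon stood at 92.5% and 97.7%.

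Rbfox1 and Rbfox2 each hold a 40-base exon, known from brain, and a 43-base exon, known from muscle, at the same place in the transcript. The 40-base exons, in capitals, lie at chr16:7363958-7363997 and chr15:76924881-76924920 and were identical at 34 of 40 bases.
Rbfox1 40-base exon: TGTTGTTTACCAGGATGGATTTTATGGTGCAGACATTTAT
Rbfox2 40-base exon: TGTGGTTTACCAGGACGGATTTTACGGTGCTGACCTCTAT
The 40-base exon was included at 96.6% and 96.4% in Rbfox1 and at 84.7% (79.4 to 89.1) and 85.3% (79.1 to 90.3) in Rbfox2. The 43-base exon was near absent, at 0.125% and 0.176% in Rbfox1 and 0.271% and 1.65% in Rbfox2, from 1 junction read in each library of Rbfox1 and 1 and 5 of Rbfox2.

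A 93-base exon within the RNA recognition motif, the skipping of which is known to give a protein that does not bind RNA, was described in all 3 RBFOX genes. The exon of Rbfox1 was identical at 86 of 93 bases to the upstream of the 2 93-base exons of Rbfox2 and at 69 of 93 to that of Rbfox3. It was included at 100% and 99.2% in Rbfox1. In Rbfox2, it stood at 90.2% in BxC (81.7 to 95.7) and 98.2% in CxB (90.3 to 100), from 8 and 1 skipping reads. With an overhang of 10 bases it stood at 83.3% and 100%, a difference of 16.7 points. In Rbfox3 it stood at 95.4% and 100%, from 4 and 0 skipping reads, and at 86.4% and 100% over distinct positions. In all 3 genes the intervals of the libraries overlapped.

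The 1 exon past 10 points was a 51-base coding exon of Rbfox2 near the start of the gene (chr15:77061817-77061867). It was included at 61.5% in BxC (52.8 to 69.6) and 72.2% in CxB (62.1 to 80.8), a difference of 10.7 points with overlapping intervals. It was not past 10 points from the upstream junction alone (54.7% and 61.4%) or over distinct positions (64.2% and 68.4%). Its skipping junction, 173 kb long and not annotated, had 52 reads in BxC and 27 in CxB. With at least 10 aligned bases on each side of a junction, inclusion was 77.4% and 100%, so all skipping reads of CxB had a shorter overhang. At the donor before the exon, 16 of 29 reads in BxC and 22 of 22 in CxB then led into it. These shares, 55.2% (35.7 to 73.6) and 100% (84.6 to 100), had intervals that did not overlap. Outside the coding sequence, a 40-base exon of Rbfox3 stood at 96.0% and 90.8%. A 39-base exon of Elavl4 in the hinge region stood at 94.9% (91.0 to 97.4) and 95.2% (90.4 to 98.1), and the matching 39-base exon of Elavl3 at 97.8% and 100%. Srrm4 had 11 measured internal exons and none was alternative.

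**Figure D4:**
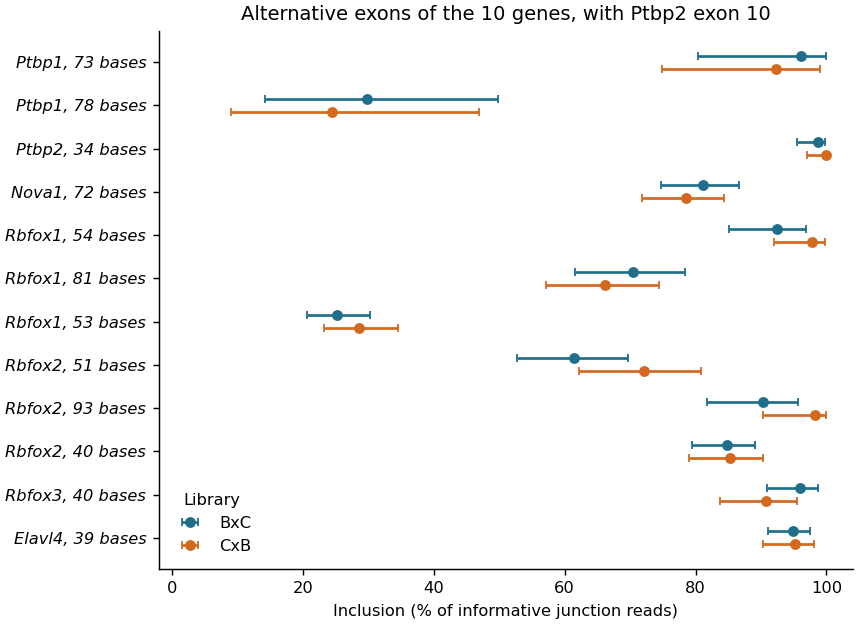
Inclusion of the 11 alternative exons of the 10 genes and of Ptbp2 exon 10 in BxC (blue) and CxB (orange), in percent of informative junction reads, named by gene and exon length, with exact Clopper-Pearson intervals at 95%. Ptbp2 exon 10 lies at 98.7% and 100%, the 53-base exon of Rbfox1 near 27%, and the intervals of the libraries overlap for every exon drawn.

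Splice sites shared by several junctions were also counted, which takes in alternative first exons and alternative acceptors. Of 175 annotated splice sites of the 10 genes with at least 20 reads in each library, 37 had 2 or more junctions that each took at least 5% of the reads in at least 1 library. This is 21.1%, beside 7.58% of 97497 such sites over all genes. Of the 37, 5 differed by at least 10 points between the crosses (13.5%), beside 28.8% of the 7391 sites of all genes. They included 2 in Elavl3, which share a junction, 1 in Elavl4 and 1 in Rbfox3.

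The last exons of Elavl3 and Elavl4 each had a pair of acceptors a few codons apart. They are printed on the minus strand with 60 bases before the upstream acceptor, and capitals mark the coding bases that only the upstream acceptor keeps, at chr9:21823258-21823358 and chr4:109879245-109879366.
Elavl3: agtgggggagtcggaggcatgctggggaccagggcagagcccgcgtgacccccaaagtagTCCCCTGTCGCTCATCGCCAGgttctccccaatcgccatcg
Elavl4: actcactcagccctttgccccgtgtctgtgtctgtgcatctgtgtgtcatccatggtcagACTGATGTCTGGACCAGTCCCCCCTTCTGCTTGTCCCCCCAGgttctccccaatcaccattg
The 20 bases after the downstream acceptor were identical at 18 positions between Elavl3 and Elavl4. The stretch between the acceptors has 21 bases in Elavl3 and 42 in Elavl4, each a whole number of codons. In Elavl3, the annotated upstream acceptor had 34 reads in BxC and 45 in CxB, and the downstream acceptor, which is not annotated, had 63 and 20. The downstream acceptor thus took 64.9% of the reads in BxC (54.6 to 74.4) and 30.8% in CxB (19.9 to 43.4), a difference of 34.2 points, the largest among the 37 sites, and the intervals did not overlap. Its reads lay on 30 alignment lines in BxC and 13 in CxB, and over distinct positions the shares were 62.5% (47.4 to 76.0) and 35.1% (20.2 to 52.5), a difference of 27.4 points with overlapping intervals. With an overhang of 10 bases, 33 of 52 reads in BxC and 7 of 43 in CxB were left on it, and the difference was 47.2 points.

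In Elavl4 the downstream acceptor, which is annotated, had 45 of 345 reads in BxC and 33 of 212 in CxB, or 13.0% (9.68 to 17.1) and 15.6% (10.96 to 21.2), and the intervals overlapped. Over distinct positions the shares were 38.1% and 40.6%. In BxC the 300 reads of the upstream acceptor lay on 26 alignment lines and the 45 of the downstream one on 16. Lines thus did not rise in step with reads, and the share over lines was nearer to even. The upstream acceptor held most of the reads in both libraries for Elavl4 and in CxB for Elavl3, and the downstream acceptor in BxC for Elavl3.

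**Figure D5:**
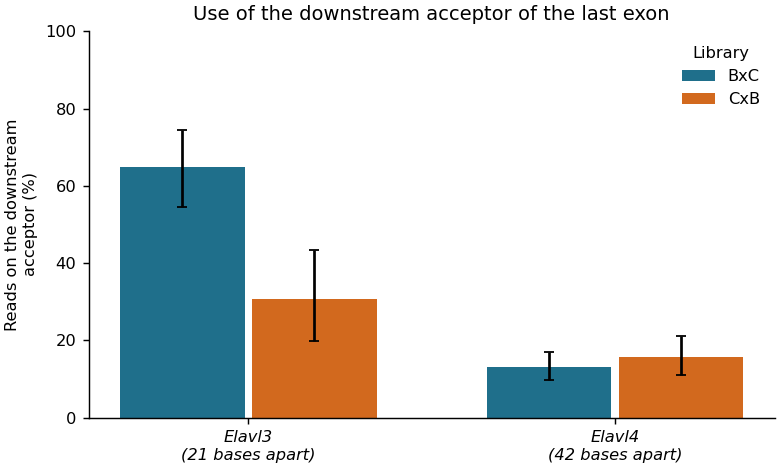
Share of the reads leaving the exon before the last that used the downstream of the 2 acceptors of the last exon, in percent, in BxC (blue) and CxB (orange), with exact Clopper-Pearson intervals at 95%. The share is 64.9% and 30.8% in Elavl3, and 13.0% and 15.6% in Elavl4.

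Alternative first exons were seen in Rbfox2 and Elavl4. In Rbfox2, 3 junctions with at least 5% of the reads led into the same exon (acceptor at 76963371 of chromosome 15), from 2 first exons, and the farther of these reached it either through the 51-base exon or directly. The nearest first exon had 205 of 367 reads in BxC and 161 of 284 in CxB (55.9% and 56.7%), the junction from the 51-base exon had 105 and 96 (28.6% and 33.8%) and the direct junction from the farther first exon had 52 and 27 (14.2% and 9.51%). With an overhang of 10 bases the direct junction kept 12 of 229 and 0 of 150 reads. In Elavl4, 3 first exons with at least 5% of the reads led into the exon with its acceptor at 109924126 of chromosome 4. Of the 188 reads in BxC and 146 in CxB at this acceptor, which include a few from other annotated first exons, the nearest took 60.1% and 63.7%, the middle one 29.3% and 12.3% (55 and 18 reads), and the farthest 9.57% and 18.5% (18 and 27 reads). The middle one had the second largest difference between the crosses, 16.9 points, with intervals of 22.9 to 36.3 and 7.47 to 18.8. Over distinct positions it was 12.8 points. With an overhang of 10 bases the middle one kept 18 of 121 and 8 of 94 reads (14.9% and 8.51%), so that it decreased by 6.37 points from BxC to CxB with overlapping intervals, and the farthest kept 2 reads in each library (1.65% and 2.13%). Both the difference and the share of the farthest first exon thus rest on reads with a short overhang. In Rbfox1, by contrast, 1 annotated first exon, which lies 415 kb before the next exon, had 1111 of the junction reads in BxC and 761 in CxB.

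In Rbfox2, acceptors 12 bases apart after the exon that ends with the donor at 76929670 took 131 and 153 reads in BxC and 160 and 163 in CxB, or 46.1% and 49.5% for the first of them. With an overhang of 10 bases its share was 34.2% in BxC and 40% in CxB, and over distinct positions 49.3% and 35.4%, so that neither even use nor a direction between the crosses held under each count. In Rbfox3, an alternative last exon had 18 of 99 reads in BxC and 7 of 80 in CxB (18.2% and 8.75%), and the order turned over distinct positions (14.3% and 17.6%). The Rbfox3 site past 10 points had 6 of 48 and 7 of 28 reads on its minor junction (12.5% and 25%). Its interval reached 44.9% in CxB. In Srrm4, an unannotated junction near the end of the gene took 7 of 21 and 13 of 33 reads of its acceptor (33.3% and 39.4%). Another unannotated junction, chr5:116904698-116917440, had 1 read in BxC and 3 in CxB. Between them lies a very short stretch that is not an annotated exon, so its inclusion was not measured. Over the 10 genes, 47 of 171 junctions were not annotated, with 4.14% of the junction reads in BxC and 3.51% in CxB.

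Exons that these proteins are known to regulate in other transcripts were read from a list of 14 exons by gene and length, of which 11 were found. Inclusion was intermediate for most. The 18-base neuronal exon of the kinase gene Src, which PTBP1 represses, was included at 61.2% in BxC (54.3 to 67.9) and 65.3% in CxB (57.02 to 72.96). Of the agrin exons, which give the neuronal form that clusters acetylcholine receptors and which NOVA proteins regulate, the 24-base exon of Agrn stood at 46.1% and 44.6% and the 33-base exon at 49.9% and 47.9%. A 21-base exon of the transcription factor gene Mef2d stood at 69.2% and 78.9%.

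Among clathrin light chains, which carry neuronal exons, the 54-base exon of Clta stood at 57.9% and 59.8%, its 36-base exon at 6.67% and 7.83% (in CxB 14.5% from the upstream and 0% from the downstream junction), and the 54-base exon of Cltb at 65.8% and 63.5%. In the NMDA receptor gene Grin1, the 63-base exon stood at 52.0% and 44.1% and the longer exon at chr2:25149958-25150068 at 50% in both libraries. The longer exon stood at 59.8% and 62.5% from the upstream junction alone and at 33.9% and 25% from the downstream one. None of the 11 exons differed by 10 points between the crosses, and the intervals of the libraries overlapped for each. Mef2d came nearest, with a difference of 9.78 points. The 33-base exon of Agrn over distinct positions (52.8% and 39.8%) and the 63-base exon of Grin1 with an overhang of 10 bases (62.96% and 52.8%) were past 10 points. From the downstream junction alone, Src (36.2% and 47.96%), Mef2d (39.7% and 54.2%) and the 63-base exon of Grin1 (48.3% and 32.6%) were past 10 points too. A read has at most 1 junction and at least 5 aligned bases on each side, so the shortest exons, such as those of Src and Mef2d and the 24-base exon of Agrn, offer fewer read positions to each inclusion junction than to the skipping junction. For Src, the upstream junction alone gave 72.2% and 73.98%. The listed exons of Dlg4, Apbb1 and Numb were not found by length among the annotated internal exons and are not analysed here.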

How the data were processed

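RNA was extracted from whole E17.5 brains, selected for poly(A), and sequenced as single-end reads of 36 bases. Libraries were made with kits, and the methods describe strand as kept through dUTP in the second strand and an UNG treatment. Per the methods and the submitters' processing notes, the authors aligned reads with Novoalign to known gene models, to sequences of 50 bases on either side of splice junctions with at most 2 exons skipped, and to mm9, and kept unique alignments. The methods describe several alignments and do not name the one behind these files. The deposited alignments list blocks with a whole-number count of identical reads in column 4, a meaning inferred from the values. The authors applied no normalization to these counts. The version of Novoalign was not given in the sources used here, and the authors' gene models were not analysed here. Of reads over annotated genes, 43.6% (BxC) and 43.1% (CxB) lay on the strand of the gene, so strand was not used.

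From these files, reads overlapping exons of GENCODE vM1, whose coordinates are those of mm9, were counted per gene on both strands. Levels are RPKM, and ratios compare the RPM of CxB with that of BxC on the log2 scale, over genes with at least 100 reads in each library. A count of 0 allows up to 3 reads, or 0.0233 RPM in BxC and 0.0273 in CxB. Inclusion took the mean of both inclusion junctions against junctions of the same gene that skip the exon between annotated sites, with at least 20 informative reads per library. Levels carry exact Poisson intervals and shares Clopper-Pearson intervals at 95%. With 1 library per cross no test was possible, and p-values are not given. Intervals were tested on simulated independent Poisson counts, with equal rates on both inclusion junctions. This is the counting error that they assume, so the simulation does not cover identical reads or junctions with unequal sides. Sequences were read from the mm9 genome. Python 3.11.15 with numpy, pandas, scipy and matplotlib was used. All columns belong to 1 library.

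The 10 genes, the lists of other regulators, markers and target exons, and the limits were chosen with earlier results of these data known. The genes named are the 10 members, the 3 highest and 3 lowest other regulators by level and by ratio, paralogs of the members, listed target exons, alternative exons and the main junctions of shared sites. Xist and Ddx3y were named after their values were seen. Alternatives were distinct positions (counted as alignment lines) in place of reads, 1 strand, bases of no other gene, library totals without chromosomes X and M, scaling by the median ratio, read minimums, either inclusion junction alone, an overhang of 6 bases, and read depth inside exon 10. An overhang of 10 bases, scaling by read positions and the neuronal markers without Tubb3 were added after seeing the data. The deposited catalog of imprinted genes was not used. Some listed exons and 1 splice site counted among those of the 10 genes are not reported here.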

Additional observations from a re-analysis of the deposited data

How the results depend on the processing

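No paired analysis was possible because each cross had 1 library, and for the same reason no library could be left out. The count of the 10 genes past the ratio limit stayed at 0 under every alternative run for it, and no called result changed direction. The count of 0 of 38 other regulators is for genes with at least 100 reads in each library. At a minimum of 20 reads, Esrp1 (0.0246 RPKM in BxC and 0.0665 in CxB) would be past the limit. With distinct positions in place of reads, the median level of the 10 genes was 20.5 RPKM in BxC and 20.95 in CxB (25.4 and 26.5 with reads), and their median log2 ratio was 0.0433 in place of -0.0215. A median over all genes is not given beside the 0.0433. With 1 strand only, the median level of the 10 genes in BxC was 25.9 RPKM. Inclusion of Ptbp2 exon 10 in BxC was 94.9% over distinct positions, and depth inside the exon gave 90.8% in BxC and 77.4% in CxB. Alternative exons of the 10 genes numbered 18 over distinct positions in place of 11. The number of them past 10 points, 1, became 2 over distinct positions (the 93-base exon of Rbfox3 and a 154-base exon of Elavl4, not the 51-base exon of Rbfox2), 0 from the upstream junction alone and 2 with an overhang of 10 bases. Splice sites past 10 points numbered 8 with that overhang in place of 5. Of values for single genes, exons and junctions, 48 left their intervals over distinct positions and 78 did not, and 14 and 16 did and did not with 1 strand. The causes were not tested. Values that used an overhang of 10 bases or a scaling by read positions were chosen after seeing the data. The depth of junctions is a limit: Ptbp1 and Nova2 had 488 and 262 junction reads in BxC, against 3529 for Rbfox1.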

Other observations

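Reads inside introns were counted for the 10 genes as a share of the exon density. It was highest in Ptbp1, the shortest of the genes, at 8.41% in BxC and 8.44% in CxB, and lowest in Rbfox2, at 0.687% and 0.663%. The longest gene, Rbfox1, with 599 kb of intron, had 1.77% and 1.84%. Ptbp2 had 2.64% in BxC and 2.09% in CxB. The longest junction of Rbfox1 spanned 736 kb, with 11 reads in BxC, and starts outside the annotated gene.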
